A study of Mus musculus with 16 samples.

Results

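The genes described here are 9 genes of fetal-like repair and of the YAP pathway, Clu, Msln, Cd44, Il33, Yap1, Wwtr1, Ankrd1, Amotl2 and Lats2, in EpCAM+ cells of the mouse distal colon. They were taken by symbol from the tables of both treatments, and 7 of the 9 were listed among 22396 genes. Msln and Ankrd1 were not analysed here. RNA of EpCAM+ (epithelial) cells sorted from 16 mice was sequenced, 1 library per mouse. All mice carried floxed Tnfr2 alleles (Tnfr2-f/f), and in the mice labelled Tnfr2ko (Vil1::Cre;Tnfr2-f/f) the villin promoter drove Cre recombinase in the intestinal epithelium. The groups were 4 controls and 5 Tnfr2ko mice given water, and 3 controls and 4 Tnfr2ko mice given dextran sulfate sodium (DSS), a compound that injures the colonic epithelium, for 6 days. The labels give 3% DSS and dissection on day 12 for every mouse, whereas the study's methods give another DSS strength and take the uninjured mice before treatment. The mice were 8 weeks old by the methods. All 7 DSS mice were female, from 2 cages of 2 and 5 mice, while the 4 water-treated males shared a cage and the 5 water-treated females another. No cage held both treatments, so treatment and cage cannot be told apart.

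After injury, colonic epithelial cells can take on a state that resembles the fetal gut, with surface and secreted proteins that the resting crypt makes little of. The Hippo kinases LATS1 and LATS2 hold the co-activators YAP (Yap1) and TAZ (Wwtr1) in the cytoplasm. When that hold is released, YAP and TAZ enter the nucleus and act through the TEAD DNA-binding proteins on targets such as Ccn2 (also called Ctgf), Ccn1, Ankrd1, Amotl2 and Lats2, the last pair of which restrain YAP in turn. Clu encodes clusterin, a secreted chaperone that marks revival stem cells of the gut. Cd44 encodes a hyaluronan receptor of crypt base cells, and Il33 an alarmin cytokine kept in the nucleus until cells are damaged.

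Levels are in TPM (transcript abundance scaled for length and library), added up for each gene from its listed transcripts. As the treatments were deposited in separate tables, TPM was divided by 1 factor per mouse, set over 9936 genes above 0 in all mice, wherever DSS and water are set side by side. The factors were 0.905 to 0.940 in the water table and 1.13 to 1.24 in the DSS table, and such levels are called rescaled TPM. On log2(TPM + 1), the median gene of controls differed between DSS and water by 0.32 as deposited and by 0.01 after rescaling. The depth of the libraries is unknown, since TPM does not hold it, and values under 0.5 TPM were listed for Cd44 in 3 water mice, for Yap1 in 1 water mouse, for Wwtr1 in 2 water and 2 DSS mice and for Amotl2 in 6 water and 5 DSS mice. An exact 0 can be a failed estimate of the transcript.

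Epcam stood at 625 to 781 rescaled TPM in water and at 762 to 837 after DSS, and all 10 epithelial markers were found in every group. These 10 markers summed to 5258 to 7256 in water and to 4251 to 6358 after DSS. In each genotype 4 of them had higher and 6 lower means after DSS. The 14 leukocyte markers summed to 840 to 1698 rescaled TPM in water and to 15.9 to 39.9 after DSS, with Cd8a at 0 in all DSS mice. The 10 fibroblast markers summed to 291 to 999 in water and to 107 to 522 after DSS, with the highest DSS sums in DSS control 1 (403) and DSS Tnfr2ko 2 and 3 (442 and 522). Smooth muscle markers summed to 29.1 to 57.1 in water and 9.38 to 32 after DSS, endothelial markers to 6.70 to 22.4 and 7.01 to 19.8, and squamous markers to 0.327 to 4.44 and 2.90 to 19.6, with Krt5 and Trp63 at 0 in all water mice. Mesothelial markers summed to at most 3.38 in any mouse, with Wt1 at 0 in all of them, and glial markers to at most 2.14. Fewer cells of a type and less RNA per cell cannot be told apart in these bulk libraries. The targeted gene, Tnfrsf1b, stood at 13.9 ± 2.06 TPM (SD, n = 4) in water controls and 11.8 ± 2.30 (n = 5) in water Tnfr2ko mice, and at 16.5 ± 4.95 (n = 3) and 18.4 ± 6.02 (n = 4) after DSS (exact two-sided permutation p = 0.198 and 0.629). The floxed exons cannot be read from a transcript total, so this value does not check the genotype, and the groups are named by their labels throughout.

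The tables list the APPRIS principal transcripts, and each member except Il33 was represented by a single transcript, so what was measured depends on how that transcript differs from others of its gene. For Cd44 (ENSMUSG00000005087, chromosome 2, 102811141 to 102901665, minus strand, GRCm38), the listed transcript has 19 exons in GENCODE M21 and includes 10 exons that the gene's 9-exon transcript skips, the variable exons of CD44. Of these, exons 6, 7 and 8 were in none of the 8 other annotated Cd44 transcripts, and they are shown because they tell the counted transcript from the rest. Each lies within the coding sequence and is given whole, 5′ to 3′ on the transcript strand. Exon 8 is the third variable exon, which is known for the heparan sulfate attachment site of CD44.

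Cd44 exon 6 (chr2:102848657-102848782, 126 bases): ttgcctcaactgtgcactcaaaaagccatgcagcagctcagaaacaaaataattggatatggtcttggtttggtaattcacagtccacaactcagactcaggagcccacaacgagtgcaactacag
Cd44 exon 7 (chr2:102846403-102846519, 117 bases): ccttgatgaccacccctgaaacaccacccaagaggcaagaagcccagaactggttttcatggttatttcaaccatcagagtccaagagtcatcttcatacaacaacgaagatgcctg
Cd44 exon 8 (chr2:102845285-102845410, 126 bases): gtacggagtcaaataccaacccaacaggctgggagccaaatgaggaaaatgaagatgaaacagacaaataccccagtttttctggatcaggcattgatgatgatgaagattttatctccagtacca

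**Figure D1:**
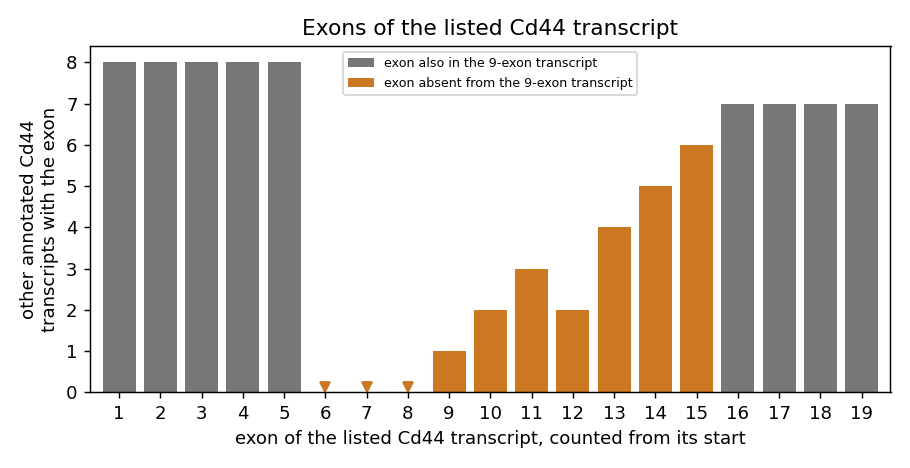
Number of other annotated Cd44 transcripts (y axis, out of 8) that hold each of the 19 exons of the listed transcript (x axis), with exons of the 9-exon transcript in grey and the other 10 in orange. Triangles mark exons 6, 7 and 8, which no other annotated transcript holds.

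Of the listed Cd44 transcript's 31-base stretches, 7.00% occurred in no other Cd44 transcript, so the level given below is an estimate for the transcript with all variable exons and leaves out the other Cd44 transcripts. The same share was 52.1% for Clu (ENSMUSG00000022037, chromosome 14, 65968483 to 65981547), 27.9% for Lats2 (ENSMUSG00000021959, chromosome 14, 57689662 to 57758388) and 5.91% for Wwtr1 (ENSMUSG00000027803, chromosome 3, 57455649 to 57575910). It was 0.588% for Yap1 (ENSMUSG00000053110, chromosome 9, 7931999 to 8004596) and 0% for Amotl2 (ENSMUSG00000032531, chromosome 9, 102716672 to 102733418), whose 14 annotated transcripts cover the listed one in full. Values of Yap1 and Amotl2 therefore rest most on how reads were divided between transcripts by the quantification. Il33 (ENSMUSG00000024810, chromosome 19, 29925114 to 29960718) had 2 listed transcripts, which shared nearly all of their sequence, while 72.7% and 74.5% of their stretches were in no unlisted one. The estimate gave at least 91.6% of the Il33 TPM of a mouse to a single transcript, ENSMUST00000025724.8 in 6 mice and ENSMUST00000120388.8 in the other 10, so that only their sum is used.

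Because TEAD proteins recognise the letters GGAATG, these letters were searched on both strands of the RefSeq promoters (GRCm38.p6), from 250 bases before to 50 after each start. Of the 7 measured members, 6 had a promoter in that table and 5 of the 6 held a match, beside 16.6% of 27025 genes. The matches are printed with 12 bases on each side, 5′ to 3′ on the gene's strand, with the match in capitals, where CATTCC is the same motif on the other strand.

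Yap1 (chr9:8004720-8004749, minus strand): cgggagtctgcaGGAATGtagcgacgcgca
Wwtr1 (chr3:57576029-57576058, minus strand): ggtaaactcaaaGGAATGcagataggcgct
Lats2 (chr14:57746102-57746131, minus strand): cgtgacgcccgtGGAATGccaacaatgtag
Amotl2 (chr9:102717727-102717756, plus strand): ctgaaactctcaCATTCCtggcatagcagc
Il33 (chr19:29924970-29924999, plus strand): gtaacattggcaGGAATGctattagcttat
Il33, second promoter (chr19:29945671-29945700, plus strand): tacacaccctcaCATTCCattcatatcgct

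The match lay 141 bases before the start in Yap1, 136 in Wwtr1, 65 in Amotl2, and 131 and 107 in the Il33 promoters, and began at the fifth base after the start in Lats2. By their positions, the matches of Lats2, Amotl2 and the second Il33 promoter lie inside the gene spans given above, at internal starts. Cd44 had no match in this window, and Clu had no promoter in the table. A match describes these letters and is not a measured TEAD site.

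Between DSS and water, Cd44 was higher and Lats2 lower after DSS, each without overlap in 1 genotype, Yap1 was higher on average in both genotypes with overlap, and Clu, Il33 and Wwtr1 overlapped throughout. A group was counted as not overlapping where all its mice lay on the same side of all mice of the other. Of the 6 members with a mean of at least 1 rescaled TPM, 0 were higher and 1 was lower without overlap in controls, where 10.6% of 11241 genes were higher and 14.2% were lower. In Tnfr2ko mice 1 of 6 was higher and 0 were lower, beside 17.4% and 18.1% of 11138 genes. The members' shares are near these backgrounds. Over all mice of both genotypes, 0 of the 6 members did not overlap, beside 4.49% of genes higher and 7.04% lower. No test was run between the treatments, because the tables were normalized separately.

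The background moved with the scaling. In controls it was 30.8% higher and 8.37% lower with TPM as deposited, 16.9% and 9.47% with the listed TPM of each mouse scaled to an equal sum, 7.52% and 12.7% with scaling by the epithelial markers, and 18.8% and 10.9% by rank within a library. In Tnfr2ko mice these were 31.5% and 10.3%, 35.2% and 6.79%, 19% and 14.4%, and 25.5% and 13.7%. In female mice only, a comparison added after seeing the data, they were 18.3% and 20.2% in controls and 21.8% and 23.1% in Tnfr2ko mice. Lats2 in controls and Cd44 in Tnfr2ko mice were without overlap in each of these comparisons within a genotype. For females only this was fixed in advance, since parts of groups that do not overlap cannot overlap. In Tnfr2ko mice Yap1 joined with the equal sum and Lats2 in females. By rank over all mice the background was 10.0% and 5.73%, with 0 members.

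**Figure D2:**
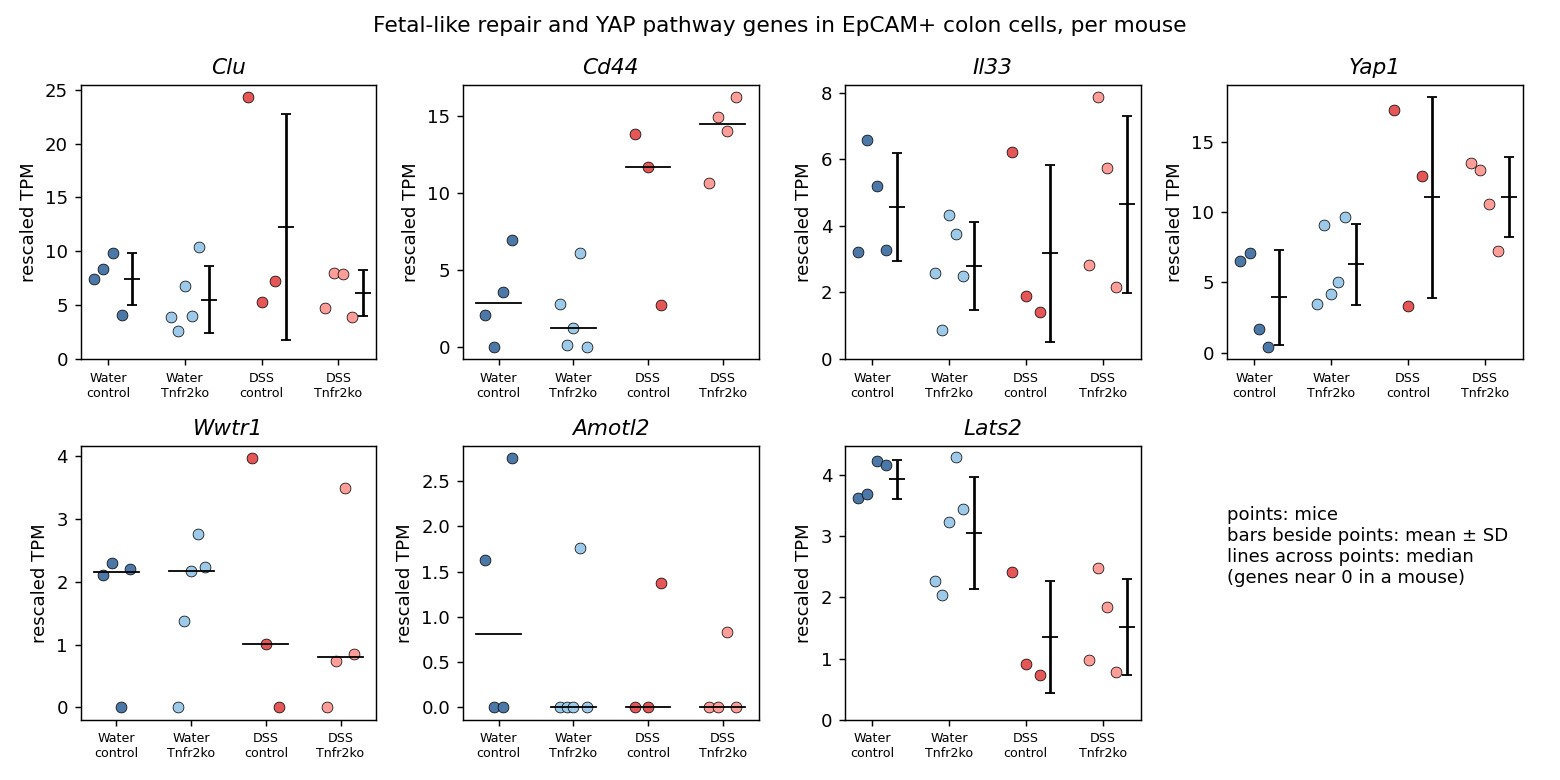
Rescaled TPM (y axis) of the 7 measured members in each mouse (points) of the 4 groups (x axis). Bars beside the points give the mean ± SD, and horizontal lines give the median for Cd44, Wwtr1 and Amotl2, which were at or near 0 in at least 1 mouse. The 4 DSS Tnfr2ko mice lie at 10.7 to 16.2 for Cd44, above every water mouse.

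Cd44 stood at 2.06, 0.0021, 3.57 and 6.96 rescaled TPM in water controls and at 13.9, 11.7 and 2.73 in DSS controls. The third DSS control lay within the water range, while the first and second lay above it. In water Tnfr2ko mice Cd44 was at 2.78, 0.117, 1.19, 6.13 and 0, and in DSS Tnfr2ko mice at 10.7, 14.9, 14.1 and 16.2, so that these groups did not overlap. The difference on the log2(rescaled TPM + 1) scale was 2.68 ± 0.55 (SE, n = 4 and 5) in Tnfr2ko mice and 1.45 ± 0.89 (n = 3 and 4) in controls, where it was 0.89 without water control 2. With a pseudocount of 0.1 in place of 1, the Tnfr2ko difference was 4.00. In Tnfr2ko mice Cd44 stayed without overlap under the other scalings and by rank. Leaving out mice, taking females only or changing the filter or pseudocount could not have made these groups overlap, so they do not check this. Over the alternatives at a pseudocount of 1, the log2 difference lay between 2.38 and 3.44. Within the libraries, Cd44 ranked at percentiles 80.6 to 85.8 of all genes in DSS Tnfr2ko mice and 19.7 to 70.9 in water Tnfr2ko mice. The leukocyte markers, which summed to at least 840 in every water mouse, summed to at most 39.9 in every DSS mouse, and the part of other cell types in the Cd44 level was not tested.

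Yap1, the co-activator itself, stood at 6.55, 7.10, 1.70 and 0.425 rescaled TPM in water controls and 17.3, 3.29 and 12.6 in DSS controls. The Tnfr2ko values were 3.49, 9.12, 4.19, 5.02 and 9.67 in water and 13.5, 13, 10.6 and 7.22 after DSS. Here 2 of 3 DSS controls and 3 of 4 DSS Tnfr2ko mice lay above every water mouse of their genotype, and DSS control 2 and DSS Tnfr2ko 4 lay within the water range. Yap1 differed by 1.38 ± 0.88 (SE) in controls and 0.78 ± 0.32 in Tnfr2ko mice on the log2 scale, and by 0.90 in controls without water control 4. Wwtr1, the gene of TAZ, was low: water controls were at 2.10, 2.29, 0 and 2.20, water Tnfr2ko mice at 0, 1.37, 2.16, 2.76 and 2.24, DSS controls at 3.97, 1.00 and 0, and DSS Tnfr2ko mice at 0, 0.733, 3.49 and 0.855. Each of the 4 groups held a mouse with Wwtr1 at 0, and the groups overlapped.

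Lats2, the kinase that restrains YAP and is itself a YAP target, stood at 3.63, 3.69, 4.23 and 4.16 rescaled TPM in water controls and at 2.40, 0.914 and 0.728 in DSS controls, without overlap. In Tnfr2ko mice it was at 2.26, 2.03, 3.22, 4.28 and 3.45 in water and 0.976, 2.48, 1.84 and 0.788 after DSS, where DSS Tnfr2ko 2 lay above 2 water mice. The log2 difference was -1.13 ± 0.31 (SE) in controls and -0.71 ± 0.27 in Tnfr2ko mice. In controls the groups stayed apart under the other scalings and by rank, while the remaining alternatives could not have made them overlap. Over the alternatives at a pseudocount of 1, the log2 difference lay between -1.44 and -0.91. The fibroblast markers were lower after DSS as well: 7 of 10 without overlap in controls and 0 of 10 in Tnfr2ko mice. Amotl2, an angiomotin that holds YAP at junctions, was at 0 in 6 of the 9 water mice and 5 of the 7 DSS mice and reached 2.75 in water control 4, so it passed the minimum of 1 TPM in no comparison.

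**Figure D3:**
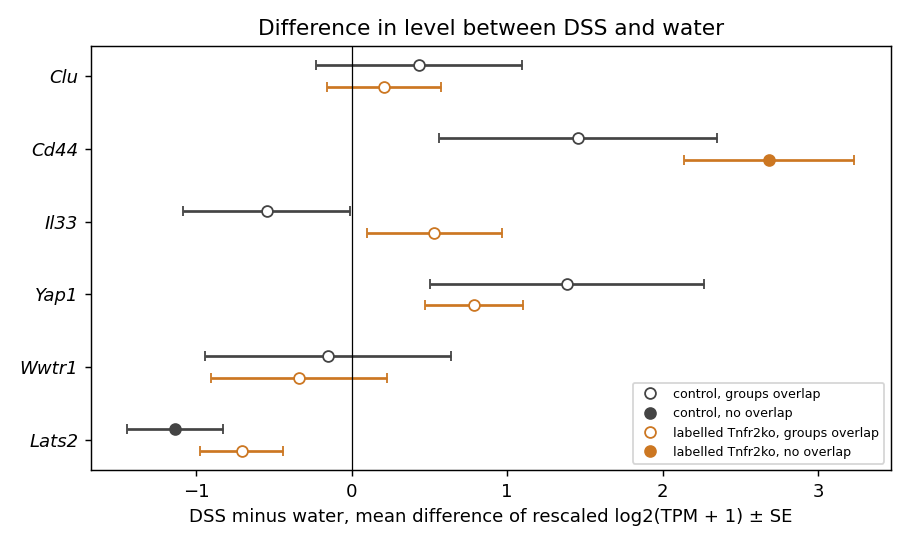
Mean difference between DSS and water on the log2(rescaled TPM + 1) scale (x axis, bars are SE) for 6 members (y axis), in controls (dark) and in mice labelled Tnfr2ko (orange). Filled points mark groups that did not overlap, Lats2 in controls (-1.13) and Cd44 in Tnfr2ko mice (2.68).

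Clu stood at 7.42, 8.39, 9.82 and 4.06 rescaled TPM in water controls and at 24.3, 5.28 and 7.23 in DSS controls. The highest Clu level of all mice was that of DSS control 1, and the other DSS controls lay within the water range. Water Tnfr2ko mice were at 3.91, 2.58, 6.74, 3.98 and 10.4 and DSS Tnfr2ko mice at 4.72, 8.03, 7.93 and 3.93, all within the water range. The log2 difference was 0.43 ± 0.66 (SE) in controls and 0.21 ± 0.37 in Tnfr2ko mice. The difference in controls was -0.17 without DSS control 1 and 0.83 without DSS control 2, and in Tnfr2ko mice it ran from 0.02 without water Tnfr2ko 2 to 0.44 without water Tnfr2ko 5. Among DSS mice, Clu was highest in DSS control 1 and DSS Tnfr2ko 2 and 3 (24.3, 8.03 and 7.93), followed by DSS control 3 (7.23). The first-named mice also had the highest summed fibroblast markers after DSS (403, 442 and 522) and the highest summed endothelial markers. The part of other cell types in the Clu level was not tested.

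Il33 stood at 3.20, 6.57, 5.21 and 3.28 rescaled TPM in water controls and 6.23, 1.90 and 1.40 in DSS controls. Water Tnfr2ko mice were at 2.58, 0.873, 4.32, 3.74 and 2.49, and DSS Tnfr2ko mice at 2.82, 7.87, 5.73 and 2.17. The mean difference was -0.55 ± 0.53 (SE) in controls and 0.53 ± 0.43 in Tnfr2ko mice on the log2 scale, and whether these differ was not tested. In controls it was -1.03 without DSS control 1 and -0.24 without DSS control 3, and in Tnfr2ko mice 0.27 without DSS Tnfr2ko 2 and 0.30 without water Tnfr2ko 2. Within DSS, the 3 mice with the highest Il33 (DSS control 1, DSS Tnfr2ko 2 and 3) were also the 3 with the highest Lats2 and the highest summed fibroblast markers. The fibroblast sums of the other 4 DSS mice were 109, 174, 107 and 113, against 403, 442 and 522 in those 3. The part of fibroblast RNA in the Il33 and Lats2 levels was not tested.

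**Figure D4:**
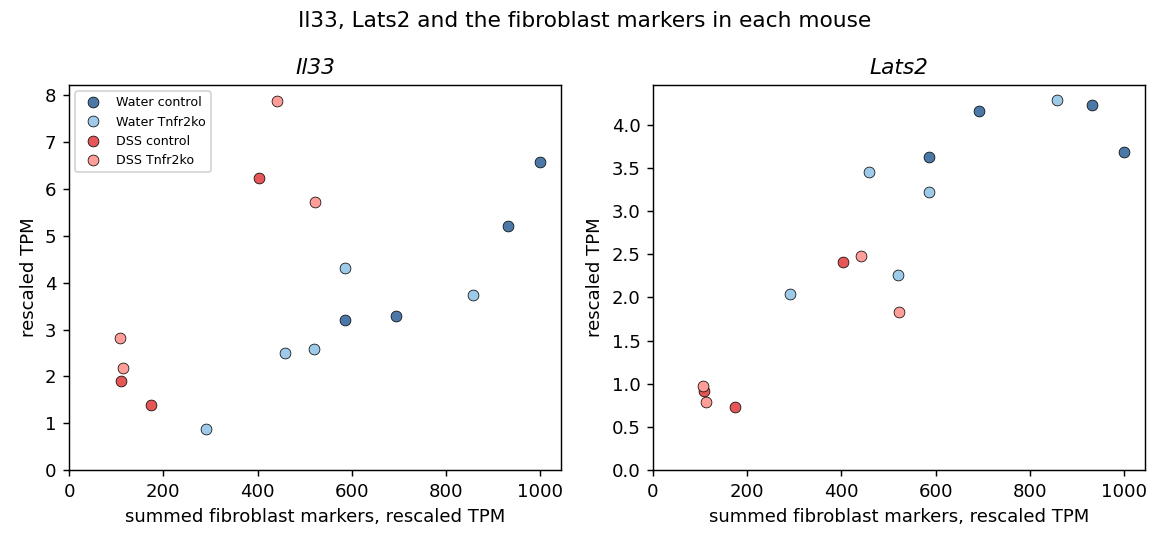
Rescaled TPM of Il33 (left, y axis) and Lats2 (right, y axis) against the sum of 10 fibroblast markers (x axis, rescaled TPM) in the 16 mice, coloured by group. The 3 DSS mice with sums of 403 to 522 lie above the other 4 DSS mice for both genes.

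Since TPM is scaled for transcript length, the estimates for the members' listed transcripts can be ordered by level. This is no order of whole genes, as unlisted transcripts are left out and Yap1 and Amotl2 rest most on how reads were divided. In the 9 water mice the medians of rescaled TPM ran from Clu (6.74) through Yap1 (5.02), Lats2 (3.63), Il33 (3.28), Wwtr1 (2.16) and Cd44 (2.06) to Amotl2 (0). In the 7 DSS mice the order was Cd44 (13.9), Yap1 (12.6), Clu (7.23), Il33 (2.82), Lats2 (0.976), Wwtr1 (0.855) and Amotl2 (0). The ranges of neighbours overlapped at every step of both orders. The first place of Cd44 held in DSS Tnfr2ko mice (median 14.5, Yap1 11.8) and not in DSS controls (11.7, Yap1 12.6).

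Between genotypes, 0 of 6 members tested were called after DSS and 0 of 6 in water by limma (adjusted p under 0.05), and none reached an unadjusted p under 0.05. Over all genes limma called 1 of 10899 after DSS (0.00918%) and 1 of 11046 in water (0.00905%), neither of them a member, and 289 and 583 genes had an unadjusted p under 0.05. No member was without overlap between genotypes, beside 3.68% of genes after DSS and 1.55% in water. An exact permutation p can go no lower than 0.0286 with the 7 DSS mice and 0.00794 with the 9 water mice.

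After DSS, Cd44 was 16.6 ± 2.75 TPM (SD, n = 4) in Tnfr2ko mice and 10.9 ± 6.63 (n = 3) in controls, a log2 difference of 0.77 ± 0.44 (SE, limma adjusted p = 1.00, exact permutation p = 0.143). It was 0.16 without DSS control 3 and 1.13 without DSS control 1. In water the Cd44 difference was -0.47 ± 0.70 (adjusted p = 0.915, exact permutation p = 0.540), and ran from -1.01 without water control 2 to -0.05 without water control 4. Clu was 7.30 ± 2.55 TPM in DSS Tnfr2ko mice and 14.3 ± 12.0 in DSS controls, with the spread of the controls set by DSS control 1 at 28.0 TPM (log2 difference -0.66 ± 0.49, exact permutation p = 0.257). The difference was -0.06 without that mouse and -1.09 without DSS control 2. The Clu difference in water was -0.43 ± 0.35 (exact permutation p = 0.333).

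Yap1 was 13.2 ± 3.50 TPM in DSS Tnfr2ko mice and 13.1 ± 8.41 in DSS controls, a log2 difference of 0.23 ± 0.50 (exact permutation p = 1.00). In water it was 5.78 ± 2.61 TPM in Tnfr2ko mice and 3.64 ± 3.12 in controls, 0.79 ± 0.53 on the log2 scale (exact permutation p = 0.286). Il33 differed by 0.52 ± 0.50 after DSS (exact permutation p = 0.457) and by -0.57 ± 0.32 in water (exact permutation p = 0.143), and the difference between these was not tested. The Il33 difference after DSS ran from 0.23 without DSS control 3 to 1.02 without DSS control 1. Lats2 differed by 0.14 ± 0.37 after DSS (exact permutation p = 0.714) and by -0.30 ± 0.18 in water (exact permutation p = 0.119). Wwtr1 differed by -0.13 ± 0.71 after DSS and 0.04 ± 0.47 in water (exact permutation p = 0.686 and 0.905). For Amotl2, at 0 in most mice and under the minimum of the limma fits, the exact permutation p was 0.714 after DSS and 0.405 in water. The adjusted p over the alternatives, which are given in the closing section, ran from 0.830 to 1.00 after DSS and from 0.710 to 0.994 in water.

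**Figure D5:**
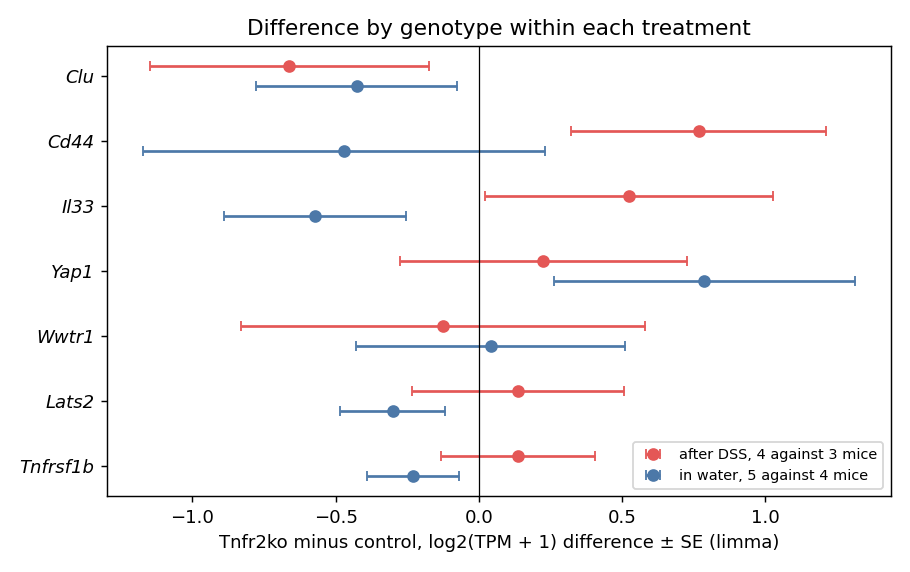
Difference between Tnfr2ko and control mice on the log2(TPM + 1) scale (x axis, points with SE from limma) for 6 members and Tnfrsf1b (y axis), after DSS (red, 4 against 3 mice) and in water (blue, 5 against 4 mice). None was called, and the SE bars of Wwtr1 include 0 in both treatments.

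The Hippo pathway around the members was described from 30 components, all listed, which include Yap1, Wwtr1, Lats2 and Amotl2. In controls 23 components passed the minimum, of which 2 were higher and 2 lower after DSS without overlap, beside 10.6% and 14.2% of all genes. In Tnfr2ko mice 6 of 24 were higher and 0 lower, beside 17.4% and 18.1%. With TPM as deposited 6 components were higher in controls and 10 in Tnfr2ko mice (30.8% and 31.5% of all genes), and with the equal sum 4 and 11 (16.9% and 35.2%). The counts in controls were 5 higher without DSS control 2, and 6 higher and 4 lower without DSS control 3, and 2 were lower in Tnfr2ko mice without DSS Tnfr2ko 2. With fewer mice, groups of any gene separate more easily, and the share of all genes was not computed with mice left out. The median log2 difference was 0.04 in controls and 0.08 in Tnfr2ko mice, beside 0.01 and -0.00463 over all genes. The 6 in Tnfr2ko mice were Taok1, Taok3, Sav1, Mob1b, Lats1 and Tead1, with log2 differences from 0.16 (Sav1) to 1.25 (Mob1b and Tead1), and the 2 in controls were Taok3 and Strn3. Frmd6, an upstream FERM-domain protein, was the component lower in controls beside Lats2, at -0.74. Taok3, a kinase that acts upstream of LATS, was the one component of those passing that was higher without overlap in both genotypes, at 18.1 ± 0.68 rescaled TPM (SD, n = 3) against 16.7 ± 0.29 (n = 4) in controls. Lats1, the sister kinase of Lats2, stood at 3.40 to 5.23 rescaled TPM in water and 5.09 to 8.62 after DSS. Of the TEAD genes, Tead4 was at 0 in all 16 mice, Tead1 reached at most 1.52 in water and 3.41 after DSS, and Tead2 and Tead3 at most 5.18 and 7.42 in any mouse. By genotype limma called 0 of 25 components after DSS and 0 of 22 in water, with 1 at an unadjusted p under 0.05 in each, beside 289 of 10899 and 583 of 11046 genes.

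Of 29 YAP/TAZ targets, 28 were listed and 20 passed the minimum in each genotype. In controls 2 were higher and 7 lower after DSS without overlap, and in Tnfr2ko mice 6 were higher and 4 lower, with median log2 differences of -0.33 and -0.24. Of all genes 10.6% were higher and 14.2% lower in controls, and 17.4% and 18.1% in Tnfr2ko mice. With TPM as deposited 4 targets were higher and 7 lower in controls (30.8% and 8.37% of all genes), and with the equal sum 7 were higher and 1 lower in Tnfr2ko mice (35.2% and 6.79%). Without DSS control 3, 4 targets were higher in controls, where fewer mice ease separation for any gene and the share of all genes was not computed. Ccn2, a secreted matrix protein and classical YAP target, stood at 15.9 to 28.4 rescaled TPM in water controls and 2.23 to 7.63 in DSS controls, a log2 difference of -2.29 ± 0.47 (SE), and at -2.04 ± 0.39 in Tnfr2ko mice. Axl, a receptor tyrosine kinase, differed by -2.76 ± 0.35 and -2.76 ± 0.67, and Gadd45b, a stress-response gene, by -1.29 ± 0.23 and -1.49 ± 0.24. The leukocyte markers (840 to 1698 in water, 15.9 to 39.9 after DSS) and the fibroblast markers (291 to 999 and 107 to 522) were lower after DSS as well, and their part in these differences was not tested.

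On the other side, Myof, a ferlin of membrane repair, differed by 1.55 ± 0.70 in controls and 1.05 ± 0.29 in Tnfr2ko mice, and was at 0 in 1 water control. Dock5, a guanine nucleotide exchange factor of Rac, stood at 3.97 to 6.66 rescaled TPM in the 9 water mice and 7.82 to 10.7 in the 7 DSS mice. By genotype limma called 0 of 21 targets after DSS and 0 of 20 in water. Tnfr2ko means were higher for 15 and lower for 6 targets after DSS (median log2 difference 0.19, all genes 0.015). In water 7 were higher and 13 lower (-0.22, all genes 0.0015). Whether the targets differ from all genes was not tested. The largest difference by genotype among the targets was that of Ereg (epiregulin, an EGF receptor ligand) after DSS, 1.34 ± 1.01. DSS controls stood at 2.30 to 36.3 TPM and DSS Tnfr2ko mice at 8.63 to 97.8. In water the largest was that of F3 (tissue factor), at -0.78 ± 0.27 (limma adjusted p = 0.865).

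Binding partners of the members were described from 11 genes. In controls 1 of 5 that passed was higher (Vldlr) and 2 lower (Has1 and Has2) after DSS without overlap, beside 10.6% and 14.2% of all genes, and in Tnfr2ko mice 1 of 4 was higher (Vldlr) and 0 lower, beside 17.4% and 18.1%. Il1rl1, the receptor of Il33, stayed at or under 0.792 rescaled TPM in every mouse, and Il1rap, its co-receptor, stood at 1.30 to 3.57. Has1, an enzyme that makes the CD44 ligand hyaluronan, stood at 2.26 to 31.2 in water and 0.0996 to 6.36 after DSS, with log2 differences in controls of -2.18 ± 0.87 for Has1 and -1.10 ± 0.18 for Has2, a second such enzyme. Spp1 (osteopontin), a further CD44 ligand, was at or under 6.39 in every mouse. Vldlr, a lipoprotein receptor that binds clusterin, stood at 0.593 to 1.18 in water mice and at 1.38 to 2.81 in DSS mice. By genotype 0 of 4 partners tested after DSS and 0 of 3 in water were called by limma, none of them at an unadjusted p under 0.05.

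The wider fetal list of 317 genes is part of a database curated by the authors' laboratory, which took its fetal genes from Mustata et al. The list holds 5 of the 9 members (Clu, Msln, Cd44, Il33 and Wwtr1), and 288 of its genes were listed here. In controls 21 of 216 that passed (9.72%) were higher after DSS and 59 (27.3%) lower without overlap, beside 10.6% and 14.2% of all genes. With TPM as deposited, where 30.8% of all genes were higher and 8.37% lower, the counts were 46 and 36. In Tnfr2ko mice 32 of 211 were higher (15.2%) and 44 lower (20.9%), beside 17.4% and 18.1% of all genes. There the counts were 54 and 30 with TPM as deposited (31.5% and 10.3% of all genes) and 61 and 24 with the equal sum (35.2% and 6.79%). Without DSS control 3, 34 genes of the list were higher in controls, where fewer mice ease separation for any gene and the share of all genes was not computed. The median log2 difference was -0.21 in controls and -0.18 in Tnfr2ko mice.

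The falls of this list were led by Cd68, a lysosomal protein of macrophages, at 84.6 ± 11.9 rescaled TPM (SD, n = 4) in water controls and 3.53 ± 1.87 (n = 3) in DSS controls. Laptm5, a lysosomal protein of blood cells that is also among the leukocyte markers, went from 63.4 ± 5.69 to 2.45 ± 1.70, and S100a4, a calcium-binding protein, from 60.4 ± 13.7 to 4.03 ± 1.87. These moved with the leukocyte markers given above, whose part in the list was not tested. The rises were led by Ddah1, which breaks down methylated arginines, at 5.33 ± 1.06 in water controls and 18 ± 4.32 in DSS controls. Sptssb, a subunit of serine palmitoyltransferase, went from 13.5 ± 3.99 to 40.9 ± 19.2, and Slc19a2, a thiamine transporter, stood at 0 to 2.70 in water controls and 3.09 to 4.61 in DSS controls. By genotype limma called 0 of 212 genes of the list after DSS and 0 of 213 in water, with 15 and 14 at an unadjusted p under 0.05. Over all genes these were 289 of 10899 after DSS and 583 of 11046 in water. Tnfr2ko means were higher for 124 and lower for 88 genes of the list after DSS (median log2 difference 0.07, all genes 0.015). In water 91 were higher and 122 lower (-0.049, all genes 0.0015). Whether the list differs from all genes was not tested. The largest difference was that of Ecscr after DSS, 2.74 ± 0.56 (SE, limma unadjusted p = 0.0014). DSS controls were at 1.40 ± 2.43 TPM (SD) and DSS Tnfr2ko mice at 10.7 ± 1.67, without overlap. In water it was that of Rbms1, -1.25 ± 0.49.

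Likeness to each member was described by Pearson's r of deviations from the 4 group means over the 16 mice, among 7180 genes with a mean of at least 5 rescaled TPM. The values share the libraries and their composition, and as the highest among 7180 genes they can be high by selection. They are given without a test. The genes most like Clu were Plvap (r = 0.86), a protein of endothelial fenestrae, Cav1 (r = 0.86), the caveolin of plasma membrane caveolae, and Apold1 (r = 0.84). Cav1 (r = 0.95) was also the first for Il33, followed by Rragc (r = 0.95) and the protease inhibitor Timp3 (r = 0.91). For Lats2 they were Cd93 (r = 0.94), a receptor of endothelial and myeloid cells, Tgfbi (r = 0.93) and Msn (r = 0.93). The genes most like Cd44 were Dnajc13 (r = 0.91), Ankrd11 (r = 0.86) and Pigx (r = 0.83), those most like Yap1 were Stat2 (r = 0.82), Arhgef39 (r = 0.80) and Svbp (r = 0.77), and those most like Wwtr1 were Ostm1 (r = 0.85), Aaed1 (r = 0.85) and Ifitm1 (r = 0.84). For Amotl2, at 0 in most mice, they were Tmem176a (r = 0.86), Chpf2 (r = 0.86) and Btd (r = 0.85).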

How the data were processed

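The authors sorted EpCAM+ cells, made stranded libraries, quantified single reads of 75 bases with kallisto and tested genotype within a treatment with sleuth. The submitters' processing notes name mm10. They deposited TPM per transcript and mouse in 2 tables, 1 per treatment, normalized separately, that list APPRIS principal transcripts. The deposited p-values and q-values, log2 ratios and natural log mean estimated counts are their own comparisons and were not used. The number of columns belonging to other samples was 0. Of 29373 lines per table, 385 repeats with equal values were dropped, and the TPM of 28988 transcripts was summed by symbol.

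Genotypes were compared within a table with limma 3.58.1 (R 4.3.3) on log2(TPM + 1) with a variance trend, for genes averaging 1 TPM or more, calling Benjamini-Hochberg adjusted p under 0.05, and by exact two-sided permutation of the difference in mean TPM (scipy 1.17.1). The fit was also run on simulated data with independent normal noise per gene and known shifts. The outcome is not given here, and such noise leaves out the composition that genes of a library share. DSS and water were set side by side after median-of-ratios rescaling, without a test. Gene positions and transcripts are from GENCODE M21 (GRCm38). No pair of mice of a group shared a value above 0 in any gene, and r of log2(TPM + 1) was at most 0.957. Same-numbered mice are different animals and were not treated as pairs.

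The list genes named are those with the largest rises and falls after DSS (up to 3 each) without overlap in either genotype. For YAP/TAZ targets and the fetal list, the gene with the largest difference by genotype in each treatment is named too. For Hippo components and partners such genes are not given. Also named are called list genes and, for each member, the 3 genes most alike. Taok1, Sav1, Mob1b, Lats1, Strn3, Frmd6, the TEAD genes, Il1rl1, Il1rap, Has1, Has2 and Spp1 were named after their values were seen. The members and lists were chosen with earlier results of these data known. The alternatives were another pseudocount, filters, scalings, cage, a replicate block and leaving out each mouse. A comparison of female mice only was added after seeing the data.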

Additional observations from a re-analysis of the deposited data

Results flagged for a closer look

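In groups of 4 or 5 mice, the gap of the highest or the lowest mouse to the next was compared with the range of the group (Dixon's limit). Over 48 groups, 4 mice stood apart. The chance rate of about 1 in 20 holds for normally distributed values, and so not for groups with many mice at 0. Wwtr1 was at 0 TPM in water control 3, with the next mouse at 1.96. Amotl2 was at 1.59 TPM in water Tnfr2ko 4 and at 0.978 in DSS Tnfr2ko 3, with the other mice of those groups at 0, so that any value above 0 would be flagged. The epithelial markers summed to 5560 rescaled TPM in DSS Tnfr2ko 1, with the next mouse at 4509. The 3 DSS controls were too few for this comparison, so that the Clu level of DSS control 1 was not compared this way.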

How the results depend on the processing

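By genotype, 0 members were called under any alternative, with the limma adjusted p of members at 0.710 or above throughout. The 1 gene called after DSS became 0 with a pseudocount of 0.1, with no filter and with the replicate block, and the count ran from 0 to 3 when mice were left out (3 without DSS control 1, 2 without DSS control 3, 0 without DSS control 2 or without DSS Tnfr2ko 1, 2 or 3). The 1 gene called in water became 0 with a pseudocount of 0.1, a mean of at least 5 TPM or the replicate block, 4 with no filter and 2 with quantile normalization, and ran from 1 to 2 with mice left out (2 without water control 1 or 3 or water Tnfr2ko 1). The same-numbered mice did not deviate together (r from -0.197 to 0.0932), so the block is no pairing. Of the 4 lists, 0 genes were called, and 0 to 1 after DSS with mice left out (Ecscr without DSS control 1). Uncalled differences changed sign as follows: Wwtr1 in water, -0.056 with cage, -0.052 with the block and -0.36 to 0.35 with mice left out, and after DSS with mice left out Yap1 (-0.43 to 0.64), Wwtr1 (-0.72 to 0.52), Lats2 (-0.050 to 0.45) and Tnfrsf1b (-0.058 to 0.36). Members without overlap between DSS and water numbered 1 to 2 with mice left out: in controls Il33, Yap1 or Cd44 joined Lats2 without DSS control 1, 2 or 3, and in Tnfr2ko mice Lats2 or Yap1 joined Cd44 without DSS Tnfr2ko 2 or 4. They numbered 2 in Tnfr2ko mice with the listed TPM scaled to an equal sum (Yap1 too) and in females only (Lats2 too). Leaving out mice can separate groups but cannot make separate groups overlap. In water, the Clu difference by genotype was -0.65 without water control 4 or water Tnfr2ko 5 and -0.24 without water Tnfr2ko 2, that of Il33 -0.34 without water Tnfr2ko 2 and that of Yap1 0.32 without water control 4. The cause of these changes was not tested. The number of mice, transcript estimates near 0 and unknown depth limit these values.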
